A study of Solanum lycopersicum and Solanum pimpinellifolium with 9 samples.

Results

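Phenylalanine ammonia-lyase (PAL) genes of tomato were followed through 9 cDNA libraries, the question being which copies of the family are expressed in which organ. The family was taken as 10 gene IDs of the deposited table, out of 34727 in all: the chromosome 9 tandem Solyc09g007890, Solyc09g007900, Solyc09g007910 and Solyc09g007920, and 6 IDs elsewhere, Solyc10g086180, Solyc05g056170, Solyc03g042560, Solyc10g011920, Solyc10g011930 and Solyc03g036470. The members were listed by ID, and the family name comes with that list. The deposited table holds no gene names, and 0 of its IDs occur among the 41476 genes of the RefSeq table for assembly SLM_r2.1. That RefSeq table lists 3 genes with a PAL symbol, PAL2 on chromosome 5 and PAL3 and PAL5 side by side on chromosome 9 with 0 genes between them. No such symbol was assigned to a Solyc ID here.

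PAL removes ammonia from phenylalanine and releases cinnamate, which is the entry step of the phenylpropanoid pathway. From cinnamate, plants make lignin of the xylem and other thickened walls, the phenolic part of suberin in root barrier layers, chlorogenic acid, flavonoids of leaf, pollen and fruit skin, and part of their salicylic acid. Plants carry PAL as a gene family, and the copies of 1 species tend to have very similar protein sequences and differ in where and when they are expressed.

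The libraries came from LA0722, an accession of the wild relative Solanum pimpinellifolium, and from MoneyMaker, a cultivar of Solanum lycopersicum. LA0722 gave leaf, fully expanded and 2 to 4 weeks old, and red ripe fruit. MoneyMaker gave grown root, upper stem under the apical meristem, fully expanded leaf of 2 to 3 weeks, fully open flower without sepals, and fully expanded fruit of 3 stages, namely mature green, breaker, when colour begins to turn, and red ripe. All plants grew in pots of soil in a greenhouse with 16 h of light and 8 h of dark. Each group is 1 library, the number of plants behind it is not given in the sources used here, and so no difference below could be set against the spread between plants and no test was run. The organ labels were not checked against marker genes, since the IDs carry no names.

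Levels are RPKM values, the reads of a gene per kilobase of its model and relative to the size of the library. For all but 8 of 23089 IDs above 0 somewhere, the values came out as whole numbers of reads times a step, within the rounding of the file plus 0.01% of the reads. Those steps gave the reads behind each value, library totals of 211201 (LA0722 ripe fruit) to 380306 (MoneyMaker leaf) reads, and a coding length for each gene. The smallest length that fitted was taken. An ID with few values above 0 can fit several lengths, so the share of IDs that fitted is weak support for the reads. Intervals below are 95% exact intervals from those reads. They cover counting error only, and the cDNA was amplified by PCR, so reads are not independent molecules. For 6 members the inferred coding lengths were close together, at 2130 nt for Solyc05g056170, 2136 nt for Solyc10g086180, 2160 nt for Solyc09g007890 and 2166 nt for each of the other tandem copies, or 710 to 722 codons. The sequences of these IDs were not compared. Reads from copies of similar sequence can be shared or lost between them, depending on the aligner, which is not given in the sources used here. The split between copies is therefore less certain than their sum. The flower library stood apart: its recovered reads made up 93.6% of the implied total, against 98.2% to 99.9% in the 8 others, and 3478 IDs reached 25 RPKM there, against 4770 to 7150.

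Root carried by far the most PAL transcript. Summed over the members, PAL stood at 280 RPKM in leaf and 67.8 RPKM in ripe fruit of LA0722. In MoneyMaker the sum was 8433 RPKM in root, 2877 RPKM in stem, 1527 RPKM in leaf, 494 RPKM in flower, 497 RPKM in mature green fruit, 934 RPKM at breaker and 382 RPKM when ripe. In root, 6165 of 337998 reads fell on the family, a share of 1.82% (Clopper-Pearson interval 1.78% to 1.87%), against 0.0147% (0.00997% to 0.0208%) or 31 reads in LA0722 ripe fruit, the lowest library. Root stood 2.93-fold above stem (2.79 to 3.08), and stem 1.88-fold above leaf (1.75 to 2.02). The stem over leaf step depends on scaling: upper-quartile and median-ratio scaling move it by -0.67 and -0.87 log2 units for every gene. Flower and mature green fruit, with a ratio of 1.01 in favour of mature green fruit (0.86 to 1.21), were the only neighbours in the order of the 9 sums whose interval held 1. Flower levels depend on scaling too. For Solyc10g086180 the lead of flower over root was 1.11 log2 units, and it reached 2 or more with upper-quartile or median-ratio scaling. These scalings thus raise flower against root for every gene. The place of flower in the order of sums under them was not tested. Intervals of ratios to flower cover counting error only. In whole organs, a lower value can reflect fewer cells that express a gene or less RNA per cell, and these cannot be told apart.

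Of the 10 members, 6 reached 25 RPKM in some library, 3 were listed at 0 throughout and 1 had a single low value. Root was the highest of the 9 libraries for 5 of the 6 expressed members and flower for the other, Solyc10g086180. Over all 13300 IDs at 25 RPKM or more somewhere, root was highest for 16.2% and flower for 9.17%. All 6 had the order root above stem above leaf, against 27.8% of those IDs, but for Solyc09g007910 stem fell below leaf with upper-quartile or median-ratio scaling of the libraries. The stem over leaf difference in log2(RPKM + 5) was 0.87 for Solyc09g007920 and for Solyc09g007900. With upper-quartile scaling it was 0.21 for each, and with median-ratio scaling 0.00.

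**Figure D1:**
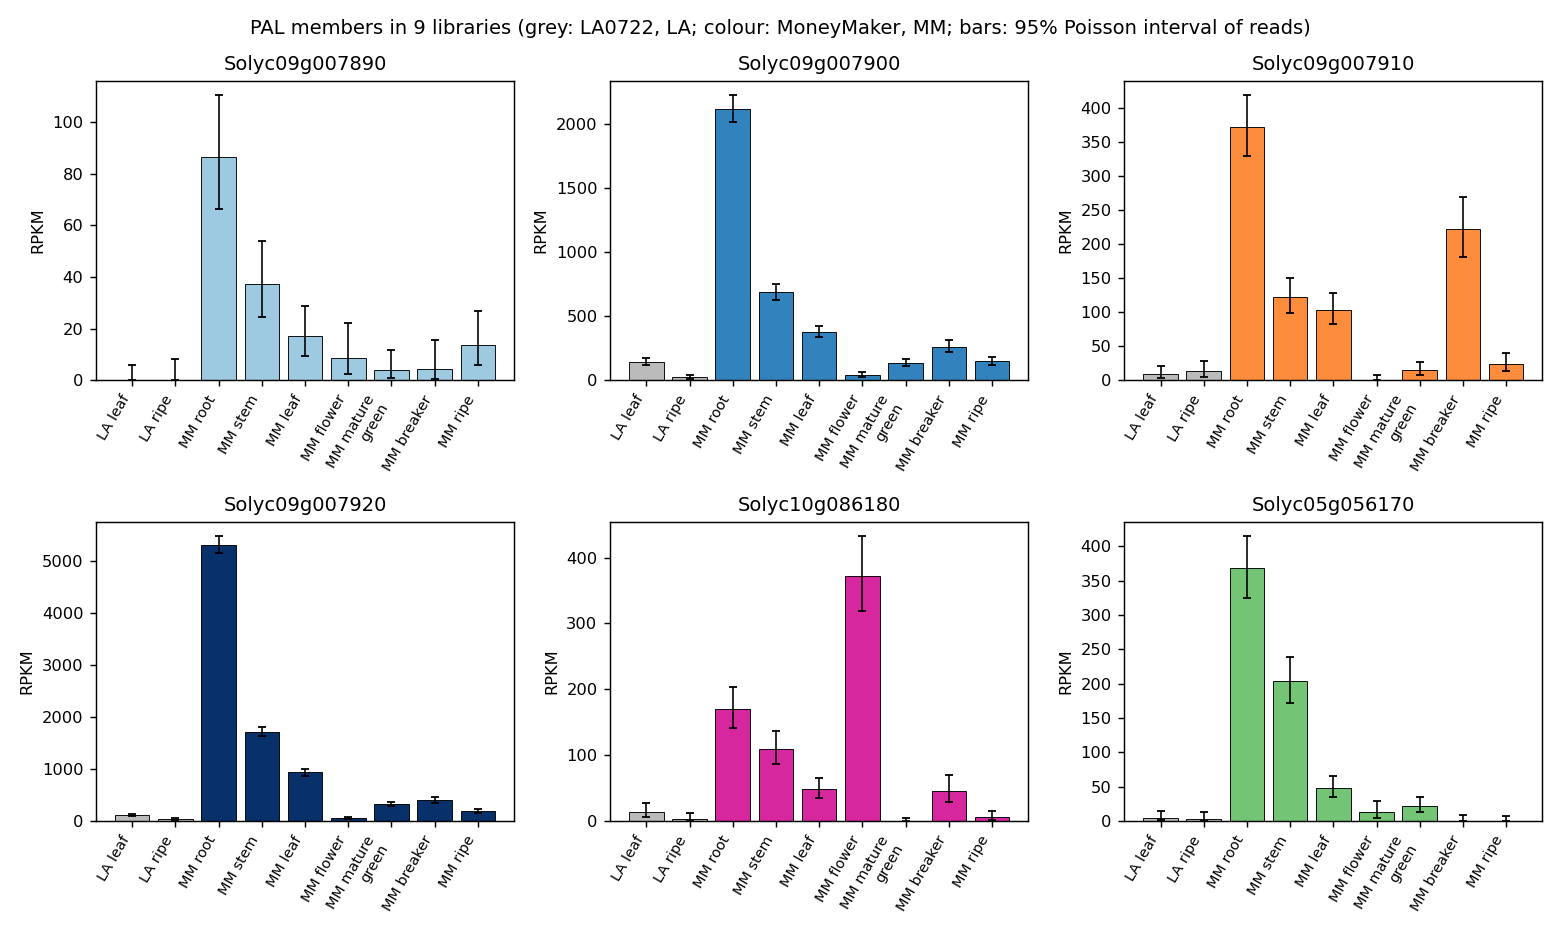
RPKM (vertical axis, linear, its own scale in each panel) of the 6 expressed PAL members in the 2 LA0722 libraries (grey) and the 7 MoneyMaker libraries (coloured), 1 library per bar, with 95% Poisson intervals of the reads. Root is the tallest bar for 5 members, Solyc10g086180 peaks in flower at 372 RPKM, and Solyc09g007910 has a second high bar at breaker, 222 RPKM.

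Solyc09g007920 was the main copy. It stood at 109 RPKM in leaf and 28.4 RPKM in ripe fruit of LA0722. In MoneyMaker it reached 5315 RPKM in root, 1718 RPKM in stem, 936 RPKM in leaf, 56.2 RPKM in flower, 322 RPKM in mature green fruit, 402 RPKM at breaker and 191 RPKM when ripe. In root it was the 14th most abundant ID of the library, with 3891 reads. Root exceeded stem 3.09-fold (2.90 to 3.30) and leaf 5.68-fold (5.25 to 6.14), and flower 94.6-fold (64.5 to 145). With upper-quartile or median-ratio scaling the fold over flower would be smaller. Only flower and LA0722 ripe fruit, the lowest pair of its 9 levels, had a neighbour ratio whose interval held 1.

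Solyc09g007900 was the second copy of the tandem in every library but LA0722 leaf, where it was the first. Its RPKM was 143 in leaf and 21.9 in ripe fruit of LA0722. In MoneyMaker its RPKM was 2117 in root, 688 in stem, 375 in leaf, 43.2 in flower, 134 in mature green fruit, 260 at breaker and 149 when ripe. The step from root over stem was 3.08-fold (2.78 to 3.41) and that from stem over leaf 1.83-fold (1.59 to 2.12), against 1.83-fold (1.68 to 2.01) for stem over leaf of Solyc09g007920. MoneyMaker ripe fruit, LA0722 leaf and mature green fruit were neighbours that counting error did not separate for this copy.

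The ratio between these main copies needs no scaling between libraries, since both are read from the same library and have the same inferred length. Solyc09g007920 had 2.51 reads per read of Solyc09g007900 in root (2.37 to 2.66), 2.50 in stem (2.25 to 2.78), 2.50 in leaf (2.18 to 2.86) and 2.40 in mature green fruit (1.89 to 3.05) of MoneyMaker. These 4 ratios lay within each other's intervals, although the family's sum ranged from 497 to 8433 RPKM over the same libraries. The ratio was 1.55 in breaker fruit (1.22 to 1.96) and 1.29 in MoneyMaker ripe fruit (0.964 to 1.72), below the interval found in root. In LA0722 leaf it was 0.763 (0.553 to 1.05), the only library where Solyc09g007900 had the higher value, although the interval held 1, with 71 reads of Solyc09g007920 and 93 of Solyc09g007900. With 13 against 10 reads in LA0722 ripe fruit and 26 against 20 in flower, the ratio of 1.30 in both libraries had wide intervals (0.527 to 3.31 and 0.698 to 2.46).

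**Figure D2:**
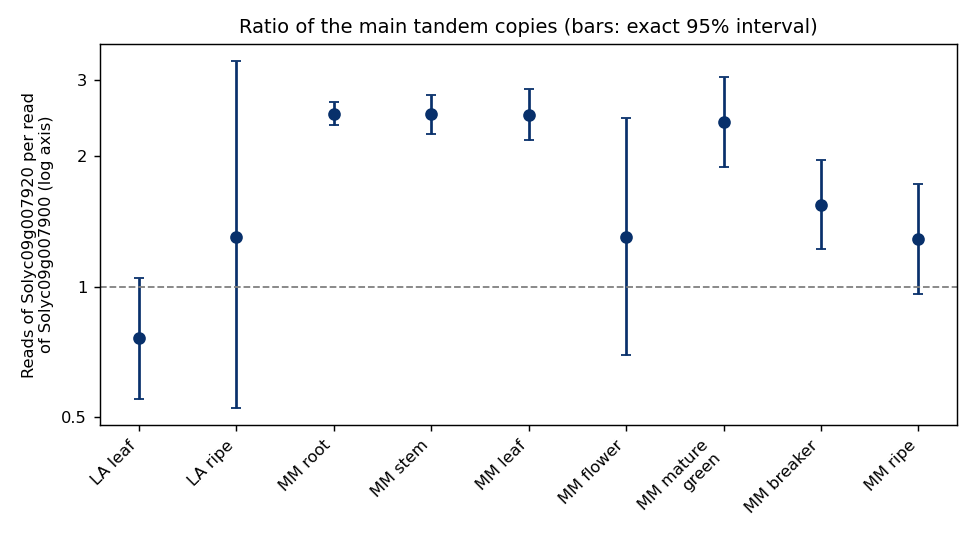
Reads of Solyc09g007920 per read of Solyc09g007900 (vertical axis, log scale) in each of the 9 libraries, with exact 95% intervals and a dashed line at equal reads. MoneyMaker root, stem, leaf and mature green fruit lie between 2.40 and 2.51, and LA0722 leaf lies lowest at 0.763.

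Solyc09g007910, the next copy of the tandem, was high in breaker fruit as well as in root. It stood at 9.21 RPKM in leaf and 13.1 RPKM in ripe fruit of LA0722. In MoneyMaker it was at 372 RPKM in root, 122 RPKM in stem, 103 RPKM in leaf, 0 in flower, 14.6 RPKM in mature green fruit, 222 RPKM at breaker and 23.9 RPKM when ripe. Breaker fruit was thus its second highest library, 1.68-fold below root (1.33 to 2.13) and 1.82-fold above stem (1.36 to 2.44). Relative to Solyc09g007920 in the same library, it had 0.551 reads per read in breaker fruit (0.429 to 0.704), against 0.0455 in mature green fruit (0.0224 to 0.0828) and 0.0699 in root (0.0616 to 0.0791). In flower 0 reads were listed, and 3 reads there would be worth 6.48 RPKM, which root exceeded 57.3-fold. The exact lower limit of root over flower was 46.3-fold, without the scalings that raise flower against root.

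Solyc09g007890, the first ID of the tandem, was its weakest copy. It was listed at 0 in both LA0722 libraries. MoneyMaker root had 86.3 RPKM on 63 reads and stem 37.1 RPKM on 27 reads, 2.33-fold apart (1.46 to 3.80). Leaf had 17.0 RPKM on 14 reads, and flower and the 3 fruit stages had between 4.00 and 13.7 RPKM on 2 to 8 reads. Below leaf in the order of its levels, no neighbours differed beyond counting error. Over the 9 libraries this copy held at most 3.58% of the family's RPKM, in MoneyMaker ripe fruit.

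Solyc10g086180 was the only expressed member whose highest library was flower. Flower had 372 RPKM on 170 reads, 2.19-fold above root (1.72 to 2.78) and 7.76-fold above MoneyMaker leaf (5.45 to 11.3). In LA0722 its RPKM was 14.0 in leaf and 2.22, a single read, in ripe fruit. In the other MoneyMaker libraries its RPKM was 170 in root, 110 in stem, 48.0 in leaf, 0 in mature green fruit, 45.8 at breaker and 5.19 when ripe. This member took 75.4% of the family's RPKM in flower, or 170 of 226 reads (75.2% of reads, interval 69.1% to 80.7%). In the 8 other libraries it took between 0% and 5.01%.

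Solyc05g056170 had its highest levels in root and stem. In LA0722 it stood at 4.68 RPKM in leaf (3 reads) and 2.22 RPKM in ripe fruit (1 read). MoneyMaker root had 368 RPKM, stem 203 RPKM, leaf 48.2 RPKM, flower 13.2 RPKM, mature green fruit 21.7 RPKM, and both breaker and ripe fruit were listed at 0. Root exceeded stem only 1.81-fold (1.47 to 2.23), below the 3.09-fold of Solyc09g007920 and outside its interval. Stem exceeded leaf 4.22-fold (2.95 to 6.18), where Solyc09g007920 showed 1.83-fold. Its share of the family's RPKM was highest in stem, at 7.07%.

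The tandem together held 93.3% of the family's RPKM in leaf and 93.5% in ripe fruit of LA0722. In MoneyMaker it held 93.6% in root, 89.1% in stem, 93.7% in leaf, 95.6% in mature green fruit, 95.1% at breaker and 98.6% when ripe, but 21.9% in flower. By reads, flower had 50 of 226 on the tandem (22.1%, 16.9% to 28.1%). The interval in flower lay far below those of the 8 other libraries, the lowest of which, LA0722 ripe fruit with 29 of 31 reads, began at 78.6%. The profile of Solyc10g086180 was also the least like that of the main copy: Pearson's r of log2(RPKM + 5) with Solyc09g007920 was 0.40, against 0.98 for Solyc09g007900, 0.86 for Solyc09g007890 and for Solyc09g007910, and 0.81 for Solyc05g056170. These r describe the same 9 libraries and are not independent of each other.

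**Figure D3:**
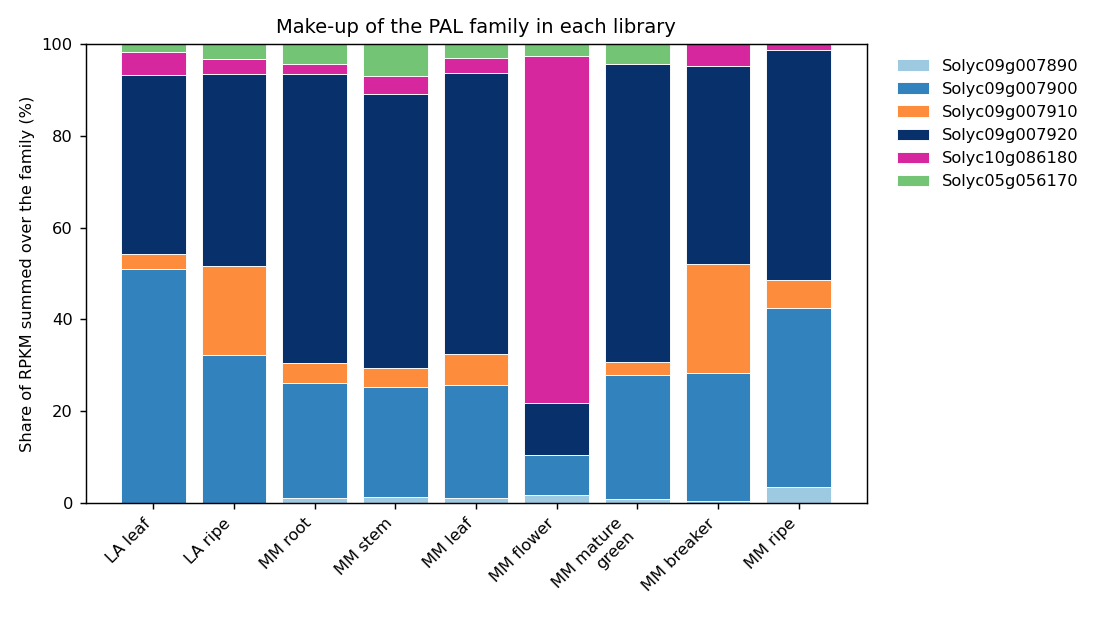
Share of the RPKM summed over the family (vertical axis, percent) held by each of the 6 expressed members in the 9 libraries. Solyc10g086180 fills 75.4% of flower, while the 4 chromosome 9 copies fill 89.1% to 98.6% of every other bar.

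The remaining 4 members added next to nothing. Solyc03g042560, Solyc10g011920 and Solyc10g011930 were listed at 0 in all 9 libraries, which at 3 reads allows each a share of up to 0.00142% of reads in LA0722 ripe fruit and up to 0.000789% in MoneyMaker leaf, the shallowest and the deepest library. Solyc03g036470 was listed at 4.29 RPKM in root and at 0 elsewhere. That value fits 1 read on 690 nt, 2 reads on 1380 nt or 3 reads on about 2070 nt, and the length could not be settled from a single value. These 4 IDs are IDs of the table without detectable transcript at this depth, apart from that value.

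No PAL member was predominant in an organ by the rule of size used across the table. An organ was counted as predominant for a gene when its log2(RPKM + 5) lay at least 2 log2 units (4-fold) above the next organ of MoneyMaker and its level was 25 RPKM or more, with the 3 fruit stages represented by their highest value. The added 5 RPKM makes such differences smaller than the plain fold, above all for low genes. Of 6 members compared, 0 were predominant in any organ, against 20.5% of the 12519 IDs compared (4.5% in root, 0.799% in stem, 2.44% in leaf, 6.19% in flower and 6.57% in fruit). The lead of root over stem was 1.63 log2 units for Solyc09g007920, 1.62 for Solyc09g007900 and 1.12 for Solyc09g007890, and the lead of flower over root was 1.11 for Solyc10g086180. At a rule of 1 log2 unit these 4 members passed, 3 in root, where 8.34% of all IDs compared passed, and 1 in flower, where 7.82% did. In stem 2.96%, in leaf 5.14% and in fruit 17.7% of all IDs passed, and 0 members. With upper-quartile or median-ratio scaling Solyc10g086180 passed the 2-unit rule in flower.

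Root was also set against stem, stem against leaf and root against leaf, comparisons added after the values were seen. By the same 2-unit rule 0 of 6 members were higher or lower in root than in stem (background 12.8% higher, 8.57% lower), and 0 of 6 higher or lower in stem than in leaf (18.4% and 8.55%). The median difference over the 6 members was 1.34 log2 units for root over stem and 0.90 for stem over leaf, against 0.00 and 0.48 over the 13300 IDs at 25 RPKM or more somewhere. In root 4 of 6 were higher than in leaf, where 27.8% of all IDs compared were higher too. None was lower (background 12.1%), and the median difference was 2.27 log2 units over the 6 members and 0.68 over the same 13300 IDs. The 4 were Solyc09g007920, Solyc09g007900, Solyc09g007890 and Solyc05g056170, and the other 2, Solyc09g007910 and Solyc10g086180, had root over leaf ratios of 3.60 (2.81 to 4.65) and 3.55 (2.46 to 5.23). Upper-quartile scaling left 1 of the 4 and median-ratio scaling 0, as these scalings move root against leaf by -0.82 and -0.96 log2 units.

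In ripening fruit of MoneyMaker the family peaked at breaker. The sum was 497 RPKM in mature green fruit, 934 RPKM at breaker and 382 RPKM when ripe. Breaker stood 1.88-fold above mature green (1.63 to 2.17), and ripe fruit at 0.410 of breaker (0.347 to 0.482). Of the 438 RPKM by which breaker exceeded mature green, Solyc09g007910 gave 47.3%, Solyc09g007900 28.8%, Solyc09g007920 18.3% and Solyc10g086180 10.5%, while Solyc05g056170 was 21.7 RPKM lower.

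In the fruit and species comparisons a member is compared only where 1 of the libraries reaches 25 RPKM, which favours members that differ, so these counts are a description. By the 2-unit rule 2 of 4 members compared were higher at breaker than at mature green, against 8.51% of 8098 IDs, and 0 were lower, against 11.5%. They were Solyc09g007910, 15.1-fold higher (8.12 to 31.3) with 103 against 11 reads, and Solyc10g086180, at 45.8 RPKM (21 reads) against 0 in mature green fruit. For Solyc10g086180 the exact lower limit was 8.42-fold, and with 3 reads set for mature green fruit breaker was 11.3-fold higher. Solyc09g007900 was 1.94-fold higher (1.48 to 2.55) and Solyc09g007920 1.25-fold (1.03 to 1.52), both short of the rule. With a pseudocount of 20 RPKM (1.72 log2 units) or a minimum of 100 RPKM Solyc10g086180 no longer passed, which left 1 member, and with no minimum level Solyc05g056170 passed as lower. Over all 6 expressed members, compared or not, the median difference was 0.62 log2 units, and over the 13300 IDs it was -0.04.

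From breaker to ripe 2 of 4 members were lower, against 8.53% of 7255 IDs, and 0 higher, against 7.07%. They were again Solyc09g007910, with a ripe over breaker ratio of 0.108 (0.0570 to 0.189), and Solyc10g086180, with 0.113 (0.0217 to 0.380). As the breaker library enters both steps, they are not independent of each other. The ratio was 0.475 (0.373 to 0.604) for Solyc09g007920 and 0.571 (0.428 to 0.758) for Solyc09g007900. Here too Solyc10g086180 no longer passed with a pseudocount of 20 RPKM (-1.39 log2 units) or a minimum of 100 RPKM. The median difference was -0.92 log2 units over all 6 expressed members and 0.00 over the 13300 IDs. Over the whole span from mature green to ripe, 0 of 2 members compared passed in either direction (background 8.51% higher and 15.2% lower). The median ripe over mature green difference over all 6 expressed members was 0.35 log2 units. It was 0.07 with values of 0 set to 3 reads, and 0.00 over the 13300 IDs. Ripe over mature green was 0.594 (0.470 to 0.746) for Solyc09g007920 and 1.11 (0.820 to 1.49) for Solyc09g007900, so the family's ratio of 0.770 (0.650 to 0.912) rested on the main copy and came to 1.10 without it. Solyc05g056170 stayed under the 25 RPKM minimum, with 16 reads in mature green fruit and 0 in breaker and ripe. The exact upper limits of its ratios to mature green fruit were 0.419 at breaker and 0.333 when ripe.

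**Figure D4:**
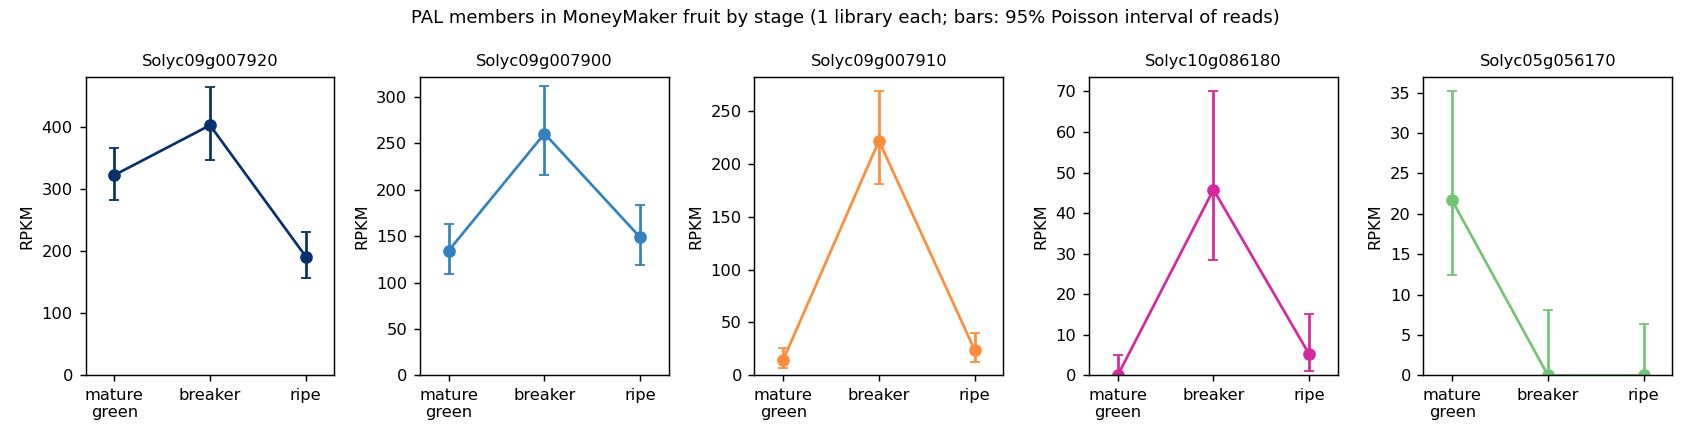
RPKM (vertical axes, linear, each panel its own scale) of 5 PAL members in mature green, breaker and ripe MoneyMaker fruit, 1 library per stage, with 95% Poisson intervals of the reads. Solyc09g007910 and Solyc10g086180 stand highest at breaker, at 222 and 45.8 RPKM, and Solyc05g056170 is above 0 in mature green fruit only.

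The PAL sum was lower in the LA0722 library than in the MoneyMaker library of both organs compared. In leaf the sum was 280 RPKM in LA0722 and 1527 RPKM in MoneyMaker, a ratio of 0.183 (0.156 to 0.214). In ripe fruit it was 67.8 RPKM in LA0722 and 382 RPKM in MoneyMaker, a ratio of 0.177 (0.118 to 0.259). Of the leaf difference, Solyc09g007920 gave 66.3% and Solyc09g007900 18.6%.

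In leaf 3 of 5 members compared were lower in LA0722 by the 2-unit rule, against 15.2% of 7015 IDs, and 0 were higher, against 17.1%. They were Solyc09g007920, with 71 reads in LA0722 and 771 in MoneyMaker (ratio 0.116, 0.0900 to 0.149), Solyc09g007910, with 6 and 85 reads (0.0892, 0.0319 to 0.202), and Solyc05g056170, with 3 and 39 reads (0.0972, 0.0192 to 0.306). Solyc09g007900 had a ratio of 0.380 (0.298 to 0.481) and Solyc10g086180 of 0.292 (0.124 to 0.612), short of the rule but with intervals below 1. The intervals of Solyc09g007900 and Solyc09g007920 did not overlap in these leaf libraries, but they cover counting error only, and with 1 library per species no difference between the species could be tested. With a pseudocount of 20 RPKM (-1.47 log2 units) or a minimum of 100 RPKM Solyc05g056170 no longer passed, which left 2 members. The median difference was -2.30 log2 units over all 6 expressed members, or -1.97 with values of 0 set to 3 reads, and 0.00 over the 13300 IDs.

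In ripe fruit 2 of 2 members compared were lower in LA0722, against 14.1% of 7088 IDs, and 0 were higher, against 9.09%. Solyc09g007920 had 13 reads in LA0722 and 112 in MoneyMaker (ratio 0.149, 0.0768 to 0.265), and Solyc09g007900 had 10 and 87 reads (0.147, 0.0682 to 0.284). For Solyc09g007910, at 13.1 RPKM in LA0722 and 23.9 RPKM in MoneyMaker, the interval of the ratio held 1 (0.173 to 1.52). The median difference was -1.29 log2 units over all 6 expressed members, or -0.68 with values of 0 set to 3 reads, and 0.00 over the 13300 IDs. How the reads of the wild species were matched to the gene models is not given in the sources used here, and its part in the species differences and in the copy ratio of LA0722 leaf was not tested.

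**Figure D5:**
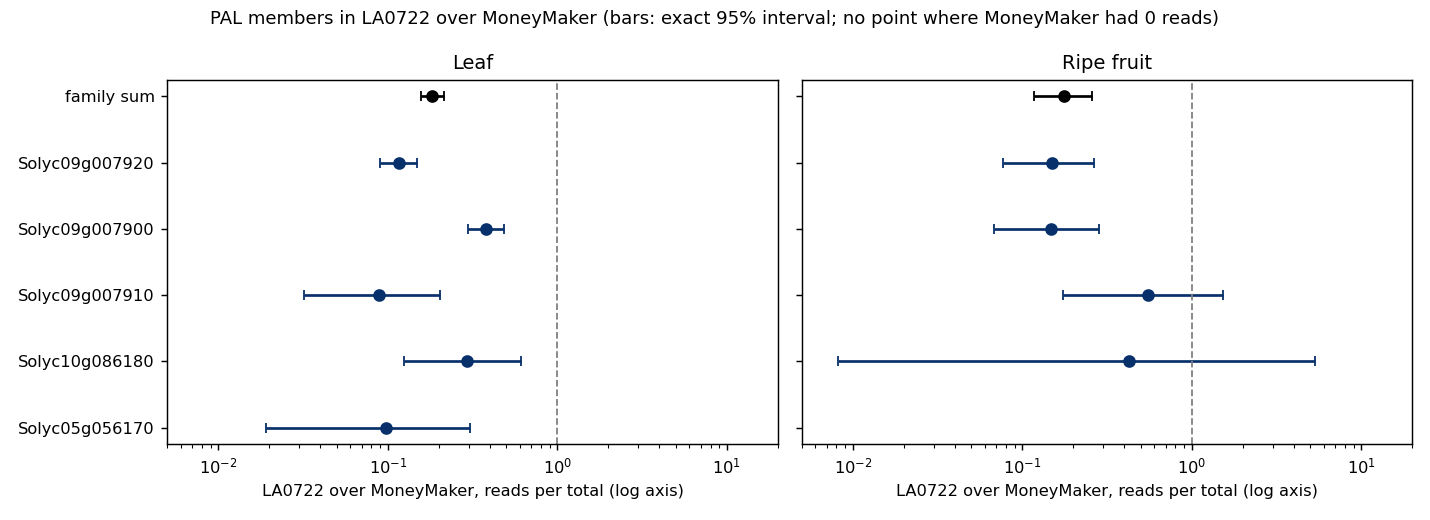
Ratio of LA0722 over MoneyMaker (horizontal axis, log scale) in leaf (left) and ripe fruit (right) for the family sum and 5 members, from reads per library total, with exact 95% intervals and a dashed line at equal levels. All 6 leaf intervals lie below 1, and in ripe fruit those of the family sum, Solyc09g007920 and Solyc09g007900 do. Solyc05g056170 has no point in ripe fruit because MoneyMaker was listed at 0.

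Outside the family, the profile most like the PAL sum over the 9 libraries was that of Solyc08g076890 (Pearson's r of log2(RPKM + 5) 0.932), followed by Solyc06g068650 (0.924), among 13294 other IDs at 25 RPKM or more somewhere. Solyc08g076890 was at 10.1 RPKM in leaf and 0 in ripe fruit of LA0722, and in MoneyMaker at 1399 RPKM in root, 2922 RPKM in stem, 542 RPKM in leaf, 85.1 RPKM in flower, 114 RPKM in mature green fruit, 169 RPKM at breaker and 11.2 RPKM when ripe. These r describe 9 shared libraries, and the highest of so many is high by selection. The 5 IDs on each side of the members by number were also counted. Of 10 rows around the chromosome 9 tandem, 7 reached 25 RPKM somewhere and 1 of these was highest in root. How the profiles of these rows relate to the PAL sum was not examined. Over all 58 flanking rows, 0 of 18 compared were higher at breaker than at mature green (8.51% over all IDs compared) and 2 lower (11.5%). When ripe, 4 of 12 were lower than at breaker (8.53%) and 2 higher (7.07%). Against mature green fruit, 7 of 17 were lower when ripe (15.2%) and 0 higher (8.51%). In leaf 2 of 20 were lower in LA0722 than in MoneyMaker (15.2%) and 7 higher (17.1%). In ripe fruit 0 of 11 were lower in LA0722 (14.1%) and 3 higher (9.09%). An organ was predominant for 2 of 25 (20.5%). In root 1 of 19 was higher than in stem (12.8%) and 2 lower (8.57%). In stem 5 of 19 were higher than in leaf (18.4%) and 0 lower (8.55%). In root 5 of 17 were higher than in leaf (27.8%) and 4 lower (12.1%).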

How the data were processed

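Per the labels' protocols, cDNA made with a SMART PCR kit was pyrosequenced with Titanium chemistry, 1 library per tissue. The authors deposited RPKM values per gene ID with 2 decimals. HTSeq is named in the submitters' processing notes, while aligner, build and annotation were not given in the sources used here. The column named for mature fruit was taken as mature green, the only label with that word, and the column BERRY-10 as MoneyMaker ripe fruit by elimination.

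Library totals, lengths (as multiples of 3 nt) and reads were inferred from the steps of the deposited RPKM values. Of 23089 IDs above 0 somewhere, 8 had no whole-read solution within the rounding of 2 decimals plus 0.01% of the reads, and recovered reads sum to 93.6% to 99.9% of the totals. The procedure was run on tables simulated from the recovered reads, lengths and totals. Such tables take these values as true, so they cannot check whether the inferred lengths and totals are right. No count model was run, as each group has 1 library. Levels have exact Poisson, shares Clopper-Pearson and ratios exact conditional intervals, all at 95%. Where stated, a library with 0 reads was set to 3 reads, which leaves out the counting error of the other library.

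A difference was counted when log2(RPKM + 5) differed by 2 or more and the higher library had 25 RPKM or more. Members at 25 RPKM or more somewhere were described by library, and the 2 IDs of highest Pearson correlation with the family sum were named. The members and lists were chosen with earlier results of these data known. The comparisons among root, stem and leaf, the copy ratios, the counts of members highest in root and the medians over all expressed members were added after the values were seen. Lists of other phenylpropanoid genes and tissue markers were not run, since 0 of 34727 IDs matched the reference of assembly SLM_r2.1. Alternatives were other pseudocounts, minimum levels, a rule of 1 log2 unit, 3 other scalings, family sums without the main copy or of the tandem alone, shares by reads, Spearman correlation, and predominance without flower. Python 3.11.15, numpy 2.4.6, scipy 1.17.1, pandas 2.3.3 and matplotlib 3.10.9 were used.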

Additional observations from a re-analysis of the deposited data

How the results depend on the processing

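Of 175 alternative values for 35 single-member differences, 143 stayed within the counting interval and 32 left it. None turned a difference past the rule of size round, but 3 changed the sign of one short of it. Solyc09g007910 in stem against leaf, 0.23 log2 units as reported, was -0.41 with upper-quartile and -0.61 with median-ratio scaling, and Solyc09g007900 in ripe against mature green fruit, 0.14 as reported, was -0.10 with equal sums. In the counts below, the cause of a change was not tested. With a pseudocount of 20 RPKM, or a minimum of 100 RPKM, 1 member was higher at breaker than at mature green and 1 lower in ripe than in breaker fruit, and 2 were lower in LA0722 leaf than in MoneyMaker leaf. Either of these settings left 3 members higher in root than in leaf. With no minimum level, 1 member was lower in breaker and 1 in ripe than in mature green fruit, and 4 were lower in LA0722 leaf than in MoneyMaker leaf. A pseudocount of 1 RPKM, or equal sums of RPKM, left 1 member higher in stem than in leaf. With a rule of 1 log2 unit, 4 members were predominant in an organ (3 in root, 1 in flower), 5 were lower in LA0722 leaf than in MoneyMaker leaf, 4 higher in root than in stem and 2 higher in stem than in leaf. At that rule 6 were higher in root than in leaf and 3 lower in ripe than in breaker fruit. With upper-quartile scaling 1 member was predominant, in flower, and 1 higher in root than in leaf. With median-ratio scaling 1 was predominant, in flower, 0 were higher in root than in leaf, and 6 were lower in LA0722 leaf. Without the flower library 0 members were predominant.

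The family's breaker over mature green ratio was 2.25 with upper-quartile scaling, 2.23 with median-ratio scaling and 3.05 without Solyc09g007920. Its ripe over mature green ratio was 0.968 after upper-quartile scaling, and equal sums gave 0.648. It reversed to 1.10 without Solyc09g007920. The LA0722 over MoneyMaker leaf ratio was 0.155 with upper-quartile scaling, 0.112 with median-ratio scaling and 0.288 without Solyc09g007920. Median-ratio scaling moves that leaf comparison by -0.71 log2 units for every gene, and stem against leaf by -0.87. No paired analysis was possible because each group has 1 library and the labels carry no replicate numbers, and no library could be left out of a group. At these depths 3 reads correspond to 3.64 to 6.56 RPKM for a gene of 2166 nt, so lower levels of these members could not be told from 0.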
